A study of Mus musculus with 31 samples.

Results

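Transforming growth factor beta (TGF-β) genes were followed in 2 mouse tumor models before and after irradiation. The set held 8 genes of the 46072 listed, picked by gene name. They were the ligand genes Tgfb1, Tgfb2 and Tgfb3, the receptor genes Tgfbr1 and Tgfbr2, the activin gene Inhba, and the early target genes Smad7 and Skil. All 8 passed the filter on low values in both models. Tgfb1 exceeded 90.8% of the tested genes in RM9 and 85.3% in MC38 by mean TPM, and Tgfb2 25.96% and 17.1%, with the other members in between.

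RM9 is a mouse prostate cancer cell line and MC38 a mouse colon cancer cell line, and both were injected under the skin of the right hind leg of wild-type male C57BL/6 mice (C57BL/6J in the study's methods) aged 6 to 7 weeks. When tumors were about 8 mm wide, they received a single dose of 15 Gy (radiotherapy, RT) and were taken 3 h, 12 h or 24 h later. Controls were unirradiated tumors whose labels carry the 3 h time point, so all 3 RT groups of a model share the same controls and a change at 12 h or 24 h cannot be told apart from a change with time. Messenger RNA from a sample of unsorted tissue of each tumor was sequenced, 1 library per mouse. There were 4 mice in each of the 8 groups except RM9 RT 24h, which had 3.

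TGF-β is secreted in a latent form bound to its own propeptide, and ionizing radiation is among the known triggers of its release. The active ligand binds the type II receptor Tgfbr2, which phosphorylates the type I receptor Tgfbr1, and Tgfbr1 then phosphorylates Smad2 and Smad3, which enter the nucleus with Smad4. Activin A, a dimer of the Inhba product, uses other receptors but the same Smads. Smad7, which blocks Tgfbr1, and Skil (SnoN), which represses Smad target genes, are induced by the pathway and damp it.

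Levels are given as TPM, the transcript share of a gene corrected for its length, which add up to the same total in each library. A single mitochondrial gene, mt-Nd4l, took 35.6% to 43.5% of that total in RM9 and 12.9% to 29.6% in MC38 libraries, so a library with less of it has higher TPM for the other genes. The median log2 fold change over all tested genes ran 0.056, -0.19, -0.040 over the RT times in RM9 and 0.19, 0.33, 0.22 in MC38, and it was 0.63 for MC38 over RM9 controls. Changes are therefore given for deposited TPM, and many also for TPM rescaled so that the typical gene does not move (median-ratio scaling). A log2 change with no scale named is by deposited TPM. MC38 Control mouse 1 stood apart, with mt-Nd4l at 29.6% of TPM against 15.8% to 21.1% in the other MC38 controls and 6 skeletal muscle markers at a sum of 9822 TPM against 17.4 to 1600. Estimated depth was 21400000 to 29400000 reads per library. The files hold no read counts, so no counting error could be given.

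Marker genes bore on the labels. In RM9 controls, 4 of 5 epithelial markers had a mean of at least 1 TPM, but the prostate gene Pbsn was listed at 0 in all 4 libraries. In MC38 controls all 5 epithelial markers were under 1 TPM on average, and so were all 4 colon markers, Cdx1 and Cdx2 being listed at 0. All 6 fibroblast, 5 endothelial and 6 macrophage markers had means of at least 1 TPM in the controls of both models. In such mixed tissue, fewer cells of a type and less RNA per cell cannot be told apart.

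The stretches upstream of the ligand genes Tgfb1 and Tgfb2 and of the activin gene Inhba differ in their letters. They come from genes at different levels, Tgfb1 being among the more abundant transcripts and Tgfb2 and Inhba low. Each is the 250 bases before the gene start in RefSeq GRCm38.p6, 5′ to 3′ on the gene's strand, at chr7:25686752-25687001 (plus strand) for Tgfb1, chr1:186705990-186706239 (minus strand) for Tgfb2 and chr13:16011601-16011850 (plus strand) for Inhba. Capitals mark GGGCGG (GC box), TGACG (cAMP response element half-site) or CAGACA (Smad box), read on either strand, and no matches overlap.
Tgfb1: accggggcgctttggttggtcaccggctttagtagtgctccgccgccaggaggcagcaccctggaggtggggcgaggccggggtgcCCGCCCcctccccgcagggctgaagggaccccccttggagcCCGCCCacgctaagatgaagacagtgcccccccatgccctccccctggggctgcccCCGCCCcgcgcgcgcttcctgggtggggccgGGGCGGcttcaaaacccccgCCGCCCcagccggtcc
Tgfb2: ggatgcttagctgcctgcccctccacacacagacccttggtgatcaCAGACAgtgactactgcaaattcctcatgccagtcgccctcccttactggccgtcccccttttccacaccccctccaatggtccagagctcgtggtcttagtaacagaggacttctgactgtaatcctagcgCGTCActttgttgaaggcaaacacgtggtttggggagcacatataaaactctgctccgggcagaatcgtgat
Inhba: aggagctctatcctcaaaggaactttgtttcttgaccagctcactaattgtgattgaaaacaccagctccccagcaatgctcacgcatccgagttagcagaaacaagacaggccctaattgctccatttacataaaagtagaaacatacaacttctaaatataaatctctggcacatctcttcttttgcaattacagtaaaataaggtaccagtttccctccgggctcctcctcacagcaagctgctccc

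The Tgfb1 stretch was 75.2% G and C and held 5 GC boxes, while the Tgfb2 stretch was 53.6% G and C with 1 half-site and 1 Smad box. The Inhba stretch, 43.2% G and C, held none of the 3 motifs. Over 32851 RefSeq promoters of this length the median was 52.4% G and C, and 32.7% held a GC box, 17.8% the half-site and 17.1% the Smad box. Of the receptors, Tgfbr1 had 2 GC boxes and 74.8% G and C before the start that the files use. Tgfbr2 had no match and 58.4% G and C. Their mean TPM over the RM9 libraries was 5.82 for Tgfbr1 and 16.1 for Tgfbr2. Whether the letters bear on the levels was not tested. The table matched 5 of the 8 genes. The other members are Tgfb3, Smad7 and Skil. These are letter matches, not sites, and a missing match says only that the letters are not in the window.

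**Figure D1:**
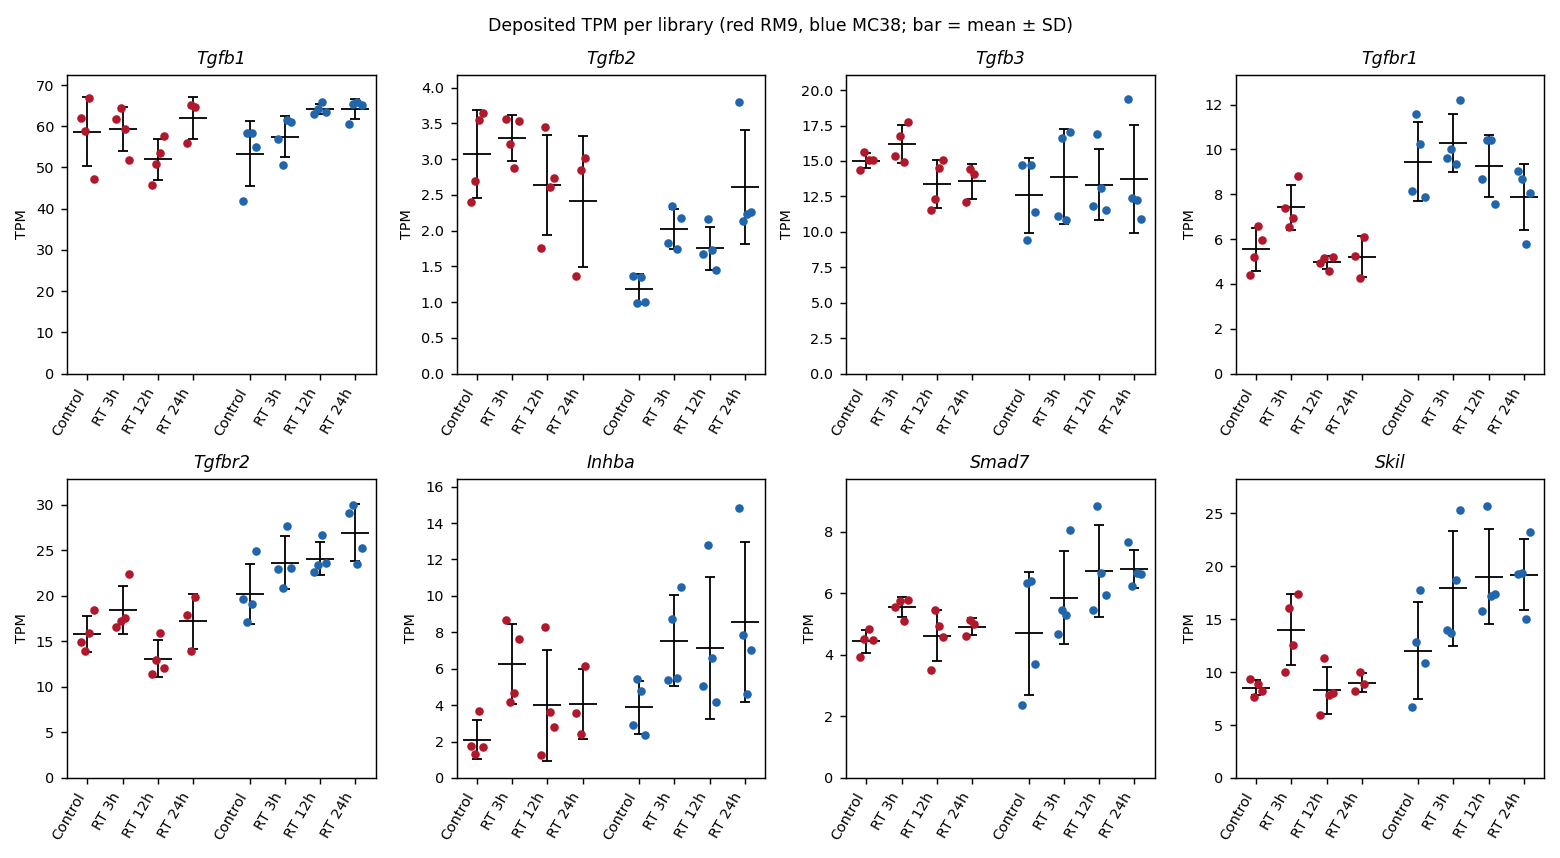
Deposited TPM of the 8 genes on a linear axis from 0, 1 point per library in mouse order, RM9 in red and MC38 in blue, with the mean and SD of each group. Tgfb2 in MC38 RT 24h lies at 2.14 to 3.80 TPM, above all 4 MC38 controls (0.989 to 1.37), and the 4 RM9 RT 3h libraries of Inhba lie above all 4 RM9 controls.

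The first question was how the models differed before RT. Tgfb2 was lower in MC38 than in RM9 controls on every scale used. The calls of Tgfb1, Tgfb3, Tgfbr1, Tgfbr2 and Smad7 depended on the scale, and Inhba and Skil passed by neither deposited TPM nor scaled TPM. Tgfb2 stood at 2.40, 2.69, 3.54 and 3.64 TPM in the RM9 controls and at 1.37, 0.989, 1.36 and 1.00 TPM in the MC38 controls, mice 1 to 4 in order. The groups did not overlap. Its log2 difference was -1.08 ± 0.19 (SE; adjusted p = 1.51e-05, limma with Benjamini-Hochberg over 15358 genes), and -1.60 after median-ratio scaling.

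By deposited TPM, Tgfbr1 and Tgfbr2 were higher in MC38 controls and Tgfb2 lower. In all, 64.7% of all tested genes were higher and 10.7% lower by this test, which is the background for 2 members higher and 1 lower. Tgfbr1 stood at 4.38, 5.21, 6.61 and 5.95 TPM in RM9 and at 8.13, 11.6, 10.3 and 7.88 TPM in MC38 controls, without overlap, as did 50.9% of all genes in that direction, while 9.09% lay entirely below as Tgfb2 did. Its log2 difference was 0.72 ± 0.15 (SE; limma adjusted p = 0.000116), close to the 0.63 of the median gene, and it was 0.092 after scaling (adjusted p = 0.584). For Tgfbr2 the log2 difference was 0.34 (limma adjusted p = 0.0226), but it turned to -0.31 after scaling (adjusted p = 0.0540). It also did not pass without RM9 Control mouse 1 (0.32), RM9 Control mouse 2 (0.28) or MC38 Control mouse 4 (0.24).

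After median-ratio scaling no member was higher in MC38 controls and 4 were lower, where 31.5% of all genes were lower. The 4 were Tgfb1 (-0.80), Tgfb2 (-1.60), Tgfb3 (-0.92) and Smad7 (-0.62), as log2 differences in limma with adjusted p from 2.51e-08 to 0.000509. By deposited TPM the differences of Tgfb1 (-0.14), Tgfb3 (-0.27) and Smad7 (-0.013) had not passed. Inhba and Skil, at 0.76 and 0.40 by TPM and 0.20 and -0.24 after scaling, passed in neither. Leaving out 1 library let Inhba pass (1.02 without RM9 Control mouse 3), as well as Skil (0.64 without MC38 Control mouse 1) and Tgfb1 (-0.24 without RM9 Control mouse 4). Any handling that differed between the libraries of the models cannot be told apart from the model.

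**Figure D2:**
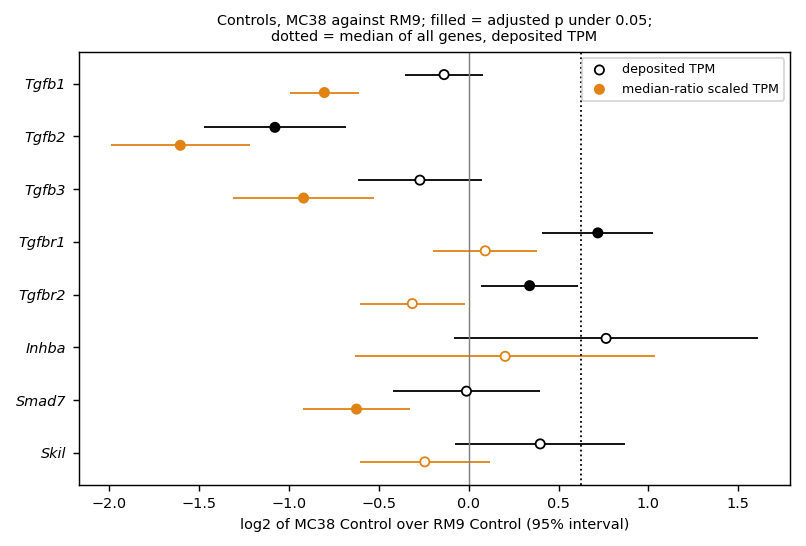
Log2 difference of MC38 over RM9 controls for the 8 genes with 95% intervals, by deposited TPM (black) and after median-ratio scaling (orange), filled where the limma adjusted p is under 0.05. Tgfb2 lies left of 0 on both scales, while Tgfbr1 and Tgfbr2 lie right of 0 in black and at 0.092 and -0.31 in orange, and the dotted line marks the median of all genes by deposited TPM, 0.63.

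Among the 3 TGF-β genes, Tgfb1 had the highest TPM in every library and Tgfb2 the lowest. Tgfb1 made up 76.2% ± 3.26 of the summed TPM of the 3 TGF-β genes in RM9 controls (SD, n = 4) and 79.3% ± 5.38 in MC38 controls (n = 4). Tgfb3 took 19.7% ± 2.38 and 18.9% ± 4.97, and Tgfb2 4.05% ± 1.08 and 1.78% ± 0.425. These shares depend on how read depth is turned into TPM. The deposited FPKM per unit of coverage, relative to the lowest such ratio in the library, was 1 for Tgfb3, 2.65 to 2.70 for Tgfb1 and 5.54 to 6.44 for Tgfb2. By coverage, the mean read depth per base, Tgfb1 made up 58.4% ± 3.96 and Tgfb3 40.2% ± 3.69 of the sum in RM9 controls (n = 4), and Tgfb2 1.46% ± 0.364. The order of the 3 genes was the same by coverage in the mean of every group.

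Tgfb1 encodes the most widely expressed of the ligands. It varied little after RT in RM9, with 47.2 to 66.8 TPM in controls, 51.9 to 64.4 at 3 h, 45.8 to 57.7 at 12 h and 56.0 to 65.2 at 24 h. Its log2 fold changes over the 3 times were 0.022, -0.17 and 0.086, with 95% intervals that span -0.40 to 0.34. In MC38 tumors it stood at 41.9, 58.3, 58.3 and 55.0 TPM in controls, 62.9, 64.1, 65.8 and 63.6 at 12 h and 60.4, 65.4, 65.8 and 65.2 at 24 h. Every library at 12 h and at 24 h was above every control, as held for 34.5% and 14.8% of all genes. Mouse 1 was the lowest control. Its log2 fold changes of 0.27 and 0.28 did not pass in limma (adjusted p = 0.0566 and 0.0893). They passed without Control mouse 3 (0.32 at both times), and 12 h also without Control mouse 2 (0.32). Without Control mouse 1 they were 0.16 (adjusted p = 0.146) and 0.17 (adjusted p = 0.196). After scaling they were -0.073 and 0.013, so Tgfb1 moved about as much as the median gene.

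Tgfb2 (chr1:186622792-186705989, minus strand, in the files) was the only ligand gene called after RT, and only in MC38 tumors at 24 h. Against 1.37, 0.989, 1.36 and 1.00 TPM in controls it stood at 1.83, 2.34, 1.74 and 2.173 at 3 h, at 1.67, 2.16, 1.73 and 1.45 at 12 h, and at 3.80, 2.14, 2.24 and 2.27 at 24 h. All 12 irradiated libraries were above all 4 controls. Taken time by time, 7.2% of all genes lay entirely above the controls at 3 h, 34.5% at 12 h and 14.8% at 24 h. The share that did so at all 3 times was not computed. The mean at 24 h was 2.21 times the control mean. The log2 fold change was 0.59 ± 0.18 at 3 h (SE; limma adjusted p = 0.146), 0.42 ± 0.18 at 12 h (adjusted p = 0.0771) and 0.87 ± 0.18 at 24 h (adjusted p = 0.00632).

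With 1 library left out at a time, the 24 h rise of Tgfb2 passed in all 8 fits. Without RT 24h mouse 1, the highest library, it was 0.70 (limma adjusted p = 0.0139), and without Control mouse 1 it was 0.92 (adjusted p = 0.00795). After scaling it was 0.67 (adjusted p = 0.0432), and in a fit of only these 2 groups it did not pass (limma adjusted p = 0.0693). Its share of the ligand TPM, which no scaling of a library can alter, was 2.36%, 1.44%, 1.83% and 1.49% in controls and 4.55%, 2.67%, 2.79% and 2.89% at 24 h, mice 1 to 4. The shares did not overlap.

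Markers moved beside this result. The 5 endothelial markers summed to 60.5 to 79.3 TPM in MC38 RT 24h against 44.7 to 58.7 in controls, with 5 of 5 higher in the mean, led by Cdh5 (25.2 against 15.9) and Kdr (6.85 against 3.98). The 6 fibroblast markers summed to 250 to 428 TPM against 190 to 353, which overlap, and RT 24h mouse 1 had the 428. The 6 macrophage markers summed to 510 to 633 TPM against 625 to 1000, with 5 of 6 lower in the mean, and the 5 neutrophil markers to 19.8 to 36.0 against 10.9 to 24.2. The 5 T cell markers summed to 4.43 to 8.00 TPM against 8.21 to 12.6, with 5 of 5 lower in the mean. Their part in the MC38 results at 24 h was not tested.

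In RM9 tumors Tgfb2 was not called at any time. It ranged from 2.40 to 3.64 TPM in controls, 2.87 to 3.56 at 3 h, 1.76 to 3.45 at 12 h and 1.36 to 3.02 at 24 h, all overlapping. Its log2 fold changes were 0.10, -0.20 and -0.33, with 95% intervals that together span -0.81 to 0.54. After scaling they were 0.040, -0.012 and -0.30.

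Tgfb3 lay between the other ligands and was not called in any RT comparison. In RM9 it was at 15.0 ± 0.511 TPM in controls (SD, n = 4), 16.2 ± 1.32 at 3 h, 13.4 ± 1.72 at 12 h and 13.6 ± 1.24 at 24 h (n = 3). In MC38 the means were 12.6, 13.9, 13.3 and 13.7 TPM, with libraries from 9.39 to 19.4. Its log2 fold changes in MC38 were 0.13, 0.090 and 0.11, and -0.078, -0.25 and -0.14 after scaling.

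Inhba had the largest fold changes of the set but also the widest spread. In RM9 it stood at 1.76, 1.29, 3.66 and 1.69 TPM in controls and at 8.67, 4.18, 4.66 and 7.61 at 3 h, without overlap. The mean at 3 h was 2.99 times that of controls, with a log2 fold change of 1.40 ± 0.42 (SE; 95% interval 0.51 to 2.29) that did not pass in limma (adjusted p = 0.118). Over all limma settings and left-out mice the adjusted p ran from 0.0553 to 0.312.

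Later in RM9, the 12 h libraries held 1.25, 8.30, 3.61 and 2.80 TPM of Inhba, and those of 24 h held 3.56, 2.41 and 6.17. Both groups overlapped the controls, and mouse 2 at 12 h was far above its group. Per 100 TPM of Tgfb1 in the same library, Inhba was at 3.52 ± 1.42 in RM9 controls (SD, n = 4) and 10.8 ± 4.19 at 3 h (n = 4). That ratio did not overlap, with 2.20 to 5.48 against 6.49 to 14.7.

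In MC38, Inhba stood at 2.92, 5.43, 4.78 and 2.37 TPM in controls, and the RT libraries held 5.40, 8.73, 5.50 and 10.5 (3 h), 5.03, 12.8, 6.58 and 4.19 (12 h), and 14.8, 7.84, 4.61 and 7.01 (24 h). Each RT group overlapped the controls, by a single RT library at 3 h and at 24 h. Its log2 fold changes of 0.89, 0.75 and 1.00 were above the median gene at each time but did not pass (limma adjusted p = 0.212, 0.113, 0.0773), and were 0.70, 0.44 and 0.77 after scaling. Without RT 24h mouse 3, the lowest of its group, the 24 h value of 1.24 passed (adjusted p = 0.0440).

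**Figure D3:**
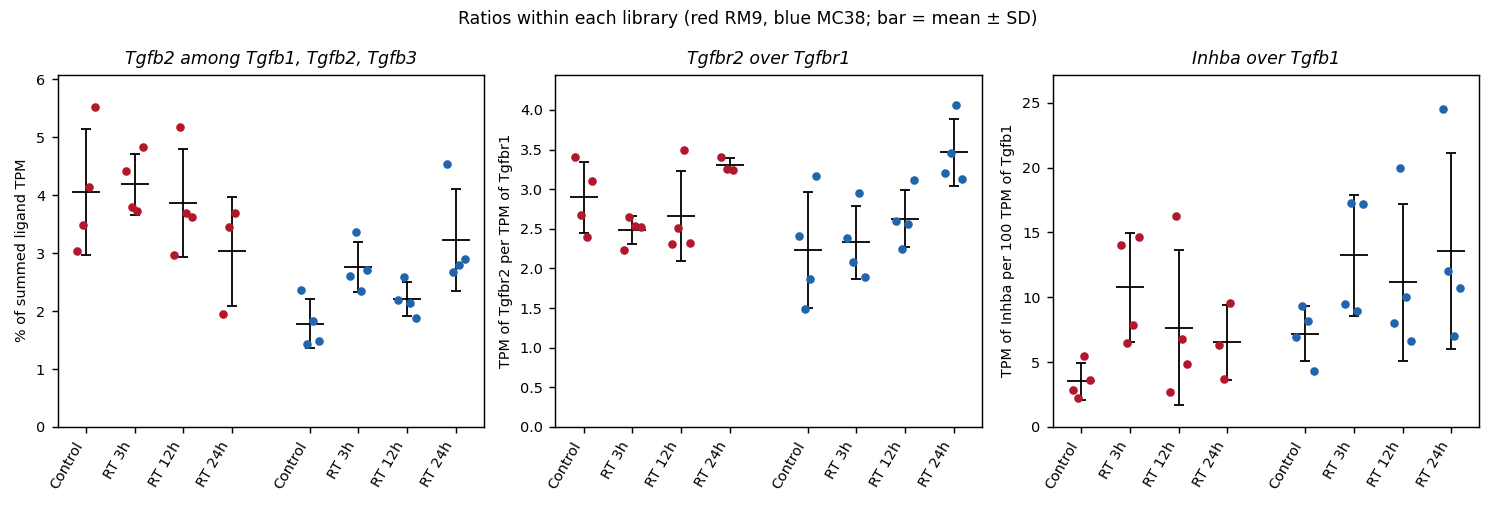
Ratios taken within each library on linear axes from 0, which no scaling of the library alters, with RM9 in red, MC38 in blue and the mean and SD of each group. Tgfb2 as a share of the TGF-β ligand TPM is higher in all 4 MC38 RT 24h libraries than in the 4 controls, Tgfbr2 per Tgfbr1 averages 3.46 there against 2.23, and Inhba per 100 TPM of Tgfb1 averages 10.8 in RM9 RT 3h against 3.52.

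Of the receptors, Tgfbr2 (chr9:116087698-116175363, minus strand) passed the test in MC38 at 24 h by deposited TPM, and Tgfbr1 (chr4:47353222-47414931, plus strand) passed in the other direction after median-ratio scaling but not by deposited TPM. Tgfbr2 stood at 19.6, 17.1, 19.1 and 24.9 TPM in controls and at 29.0, 30.0, 23.4 and 25.2 at 24 h. A single RT library, mouse 3, was below the highest control. The log2 fold change was 0.41 ± 0.13 (SE; limma adjusted p = 0.0430), and 0.15 after scaling (adjusted p = 0.565). It did not pass in 6 of the 8 fits with 1 mouse left out, among them those without Control mouse 1 (0.40, adjusted p = 0.0750), mouse 2 (0.34) and mouse 3 (0.39), and without RT 24h mouse 1 (0.37), mouse 2 (0.36) and mouse 4 (0.44).

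Tgfbr1 stood at 8.13, 11.6, 10.3 and 7.88 TPM in MC38 controls and at 9.05, 8.68, 5.76 and 8.06 at 24 h, which overlap. Its log2 fold change of -0.25 did not pass by deposited TPM (limma adjusted p = 0.324). After median-ratio scaling it was -0.50 (adjusted p = 0.0413), and it was -0.46 by deposited FPKM (adjusted p = 0.0412) and by coverage (adjusted p = 0.0348). Without mitochondrial genes in the TPM it was -0.35 (adjusted p = 0.143) and did not pass. Within a library, Tgfbr2 was 2.23 ± 0.730 times Tgfbr1 in MC38 controls (SD, n = 4) and 3.46 ± 0.425 times at 24 h (n = 4). The lowest ratio at 24 h, 3.13, was just under the highest in controls, 3.16. At 3 h and 12 h neither receptor passed in MC38, with means of 23.6 and 24.1 TPM for Tgfbr2 and 10.3 and 9.27 TPM for Tgfbr1.

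In RM9 tumors the receptors were not called. Tgfbr1 stood at 4.38, 5.21, 6.61 and 5.95 TPM in controls and at 7.39, 6.52, 6.92 and 8.83 at 3 h, where 3 of 4 libraries were above every control. The log2 fold change was 0.40 ± 0.13 (SE; limma adjusted p = 0.137). At 12 h and 24 h it was -0.13 and -0.079. After scaling the values over the 3 times were 0.33, 0.069 and -0.034. Tgfbr2 changed by 0.21, -0.27 and 0.11 on the log2 scale at the 3 times, without passing, and by 0.14, -0.053 and 0.16 after scaling. Its libraries ranged from 11.4 to 22.3 TPM.

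The inhibitors Smad7 and Skil showed their clearest separation in RM9 at 3 h without passing the main test. Smad7 stood at 3.94, 4.52, 4.83 and 4.48 TPM in controls and 5.56, 5.77, 5.11 and 5.80 at 3 h. The groups did not overlap. The log2 fold change was 0.30 ± 0.11 (SE; limma adjusted p = 0.167), and 0.23 after scaling. At 12 h and 24 h in RM9 it was 0.040 and 0.14.

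In MC38 the spread of the Smad7 controls was wide, at 2.38, 6.33, 6.42 and 3.69 TPM, with mouse 1 the lowest. At 24 h the libraries stood at 7.66, 6.23, 6.68 and 6.63 TPM, 3 of 4 above every control. Over the 3 times the log2 fold change was 0.35, 0.54 and 0.57 (limma adjusted p = 0.396, 0.0954, 0.131). Without Control mouse 1 the value was 0.29 at 12 h and 0.32 at 24 h. Without Control mouse 3 it was 0.71 and 0.74 (adjusted p = 0.0336 and 0.0468), and 12 h also passed without Control mouse 2 (0.70, adjusted p = 0.0464).

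Skil stood at 9.32, 7.70, 8.90 and 8.22 TPM in RM9 controls and at 10.0, 16.03, 12.5 and 17.4 at 3 h. No library at 3 h was as low as any control. The mean was 1.64 times that of controls, and the log2 fold change was 0.65 ± 0.18 (SE; limma adjusted p = 0.108). At 12 h and 24 h in RM9 it was -0.067 and 0.071.

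The size of the Skil difference hung on the column used. Among the 8 genes, Skil had the least stable FPKM per unit of coverage, at 2.02, 1.45, 1.47 and 1.47 in RM9 controls and 1.47, 2.29, 2.12 and 2.19 at 3 h, relative to the lowest ratio in each library. By coverage scaled for depth, Skil stood at 5.72, 6.42, 7.22 and 6.49 in RM9 controls and 7.72, 8.14, 7.34 and 8.92 at 3 h, in units of FPKM, which still did not overlap, while by deposited FPKM they did (control mouse 1 at 11.6, RT 3h mouse 1 at 11.3). The log2 fold change was 0.30 by coverage (limma adjusted p = 0.0797) and 0.61 by deposited FPKM (adjusted p = 0.0565). Of the other 7 genes, Inhba had the widest gap between these columns at 3 h in RM9. Its log2 fold change was 1.389 by deposited FPKM and 1.346 by coverage.

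In MC38, Skil stood at 6.70, 12.8, 17.7 and 10.9 TPM in controls, with 13.7 to 25.3 at 3 h, 15.8 to 25.7 at 12 h and 15.0 to 23.3 at 24 h. The RT groups overlapped the controls through mouse 3, the highest control. On the log2 scale the differences were 0.59, 0.69 and 0.72 (limma adjusted p = 0.228, 0.0507, 0.0727), and 0.24, 0.19 and 0.16 by coverage. Without Control mouse 3 the values at 12 h and 24 h were 0.90 and 0.92 (adjusted p = 0.0127 and 0.0184), and without Control mouse 1 they were 0.45 and 0.47 (adjusted p = 0.186 and 0.225).

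**Figure D4:**
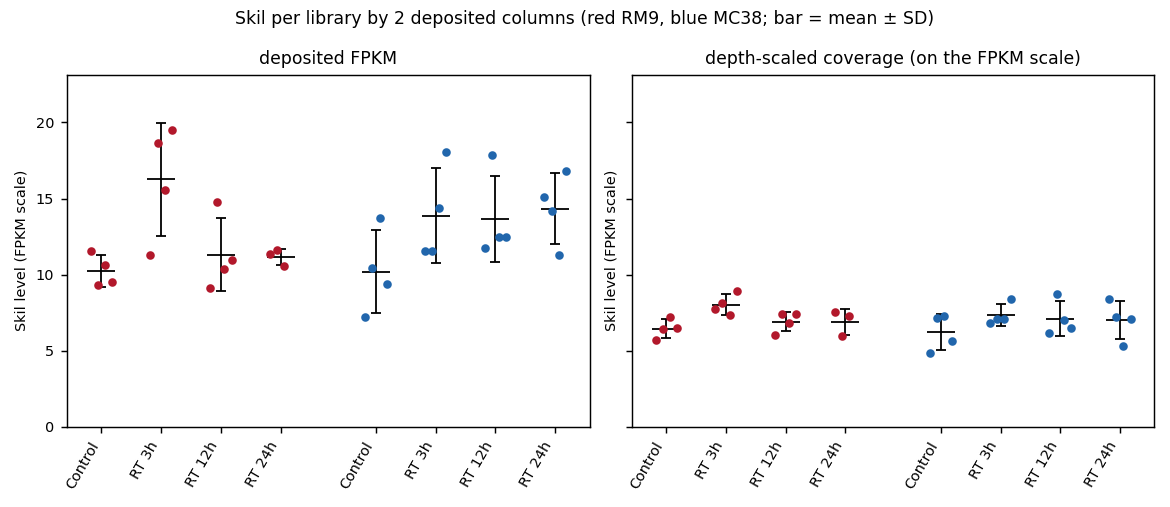
Skil per library on a linear axis from 0, by deposited FPKM (left) and by coverage scaled for depth onto the FPKM scale (right), with RM9 in red, MC38 in blue and the mean and SD of each group. In RM9 the mean goes from 10.3 in controls to 16.3 at 3 h by FPKM and from 6.46 to 8.03 by coverage.

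The members were also counted together, beside all tested genes. In RM9 at 3 h no member passed in limma, where 0.228% of all genes did. All 8 log2 fold changes were above 0, 4 had an unadjusted p under 0.05, beside 21.8% of all genes, and 3 (Inhba, Smad7, Skil) lay entirely above the controls, as did 9.88% of all genes. Dunnett's comparison on TPM, whose p covers the 3 times but is not adjusted over genes, called 3 members higher there (Tgfbr1, Smad7 and Skil), as it did 10.5% of all genes. The median over the members was 0.25 by TPM and 0.19 after scaling, beside 0.056 over all genes by TPM. Beside these values, macrophage markers summed to 211 to 319 TPM at 3 h against 300 to 468 in RM9 controls, with 6 of 6 lower in the mean, and fibroblast markers to 307 to 769 against 285 to 616, with 6 of 6 higher. The 5 epithelial markers summed to 901 to 1240 TPM against 1155 to 1395, and the 5 T cell markers to 0.943 to 2.35 against 2.24 to 4.62, with all 5 lower in the mean in both lists. The 5 neutrophil markers summed to 3.41 to 15.3 against 11.8 to 18.8, and the muscle markers to 3.02 to 815 against 218 to 2065. Their part in the RM9 values was not tested.

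In RM9 at 12 h and 24 h none of the 8 passed, none had an unadjusted p under 0.05, and none passed in Dunnett's comparison. Over all genes 8.37% passed at 12 h in limma and 0.0% at 24 h, while 31% and 4.86% (681 genes) had an unadjusted p under 0.05, and 18.1% and 2.31% passed in Dunnett's comparison. At 12 h 6 of 8 members were below 0, with a median of -0.15 beside -0.19 over all genes. After scaling 6 of 8 were above 0, with a median of 0.060 beside 0.0072 over all genes.

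In MC38 at 3 h no member passed in limma or in Dunnett's comparison, where 0.0637% and 8.8% of all genes passed. An unadjusted p under 0.05 was found for 3 members and for 19.9% of all genes. Tgfb2 lay entirely above the controls, as did 7.2% of all genes. At 12 h no member passed in limma, 4 had an unadjusted p under 0.05, beside 48.1% of all genes, and Dunnett's comparison called Tgfb1 alone higher, beside 30.2% of all genes. At that time 31.1% of all genes passed in limma, and 34.5% lay entirely above the controls as Tgfb1 and Tgfb2 did. The median over the members was 0.35, beside 0.33 over all genes, and 0.042 after scaling.

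In MC38 at 24 h the 2 members called in limma, Tgfb2 and Tgfbr2, were higher, among 13.2% of all genes called higher, and 6 members had an unadjusted p under 0.05, beside 30.5% of all genes. Dunnett's comparison called Tgfb1, Tgfb2 and Tgfbr2 higher, as it did 19.3% of all genes. Tgfb1 and Tgfb2 lay entirely above the controls, as did 14.8% of all genes. After scaling, Tgfb2 was called higher, among 7.85% of all genes, and Tgfbr1 lower, among 8.15%. The median over the members was 0.49 by TPM, beside 0.22 over all genes, and 0.25 after scaling.

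**Figure D5:**
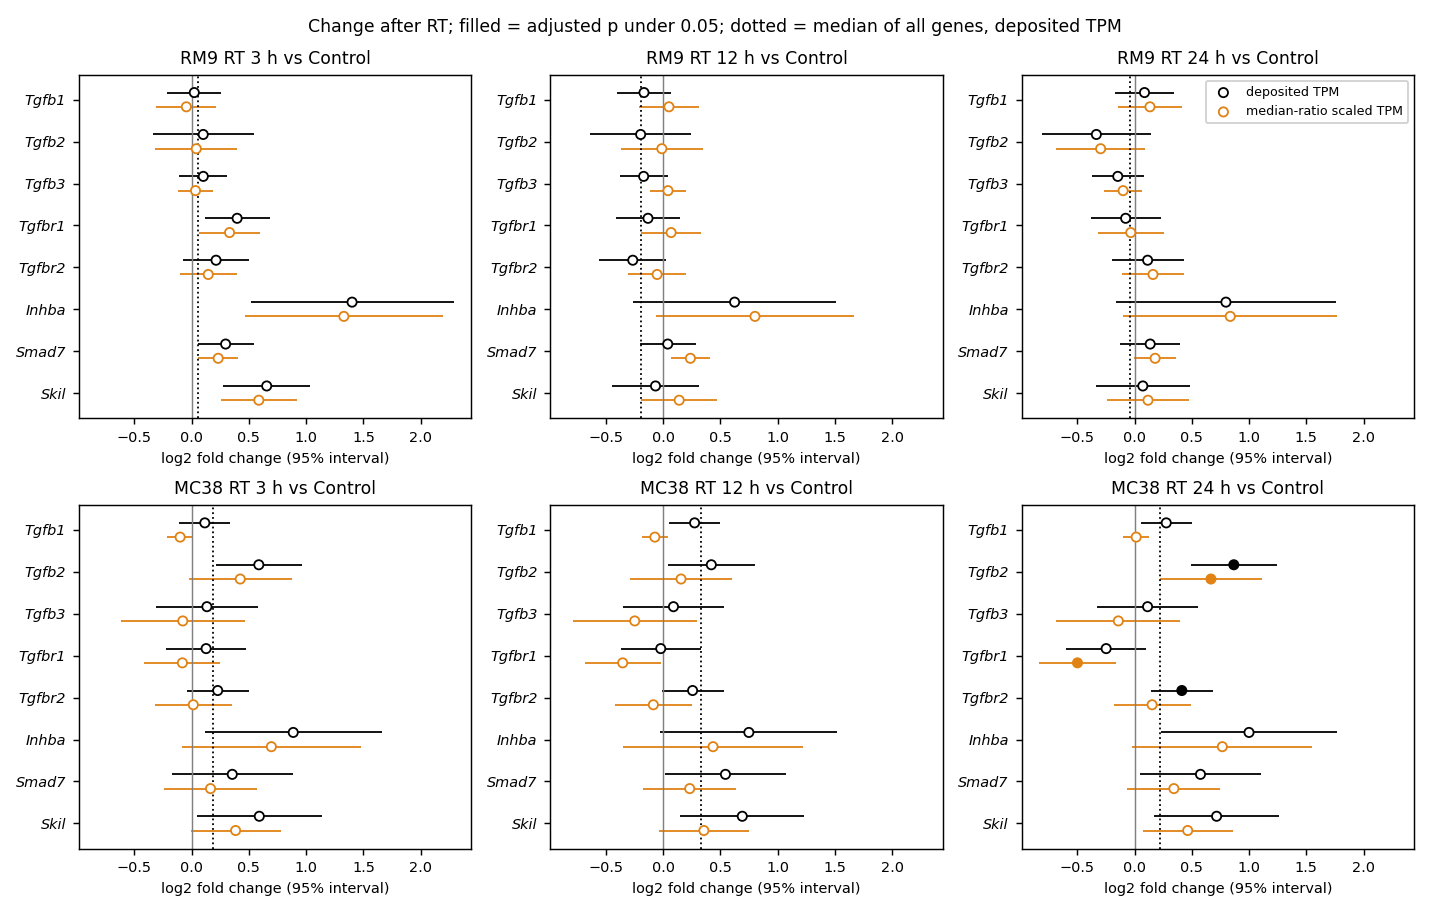
Log2 fold change of each RT group over the control of its model with 95% intervals, by deposited TPM (black) and after median-ratio scaling (orange), filled where the limma adjusted p is under 0.05. Filled points appear only in MC38 RT 24h (Tgfb2 on both scales, Tgfbr2 in black, Tgfbr1 in orange), and the dotted line gives the median of all genes by deposited TPM.

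The models were then compared in their change after RT. At 3 h no member differed in limma, none had an unadjusted p under 0.05, and 0.0% of all genes passed, with 9.89% (1519 genes) at an unadjusted p under 0.05. At 12 h Tgfb1 (0.44 ± 0.15, SE; adjusted p = 0.0212) and Tgfbr2 (0.52 ± 0.19; adjusted p = 0.0271) had a higher change in MC38, as did 44.9% of all genes, with a median of 0.50. After scaling, these differences were -0.090 for Tgfb1 and 0.00036 for Tgfbr2. Without MC38 Control mouse 1 they were 0.33 and 0.51, and without RM9 RT 12h mouse 1 they were 0.38 and 0.46, and neither gene passed. Tgfb1 also did not pass without RM9 Control mouse 3 (0.38), and Tgfbr2 without RM9 Control mouse 4 (0.45), MC38 Control mouse 2 (0.45) or MC38 RT 12h mouse 3 (0.47). At 24 h Tgfb2 had a higher change in MC38 by 1.20 ± 0.28 (SE; adjusted p = 0.0292), where 1.81% of all genes did. It was 0.97 after scaling (adjusted p = 0.0669), and 0.91 (adjusted p = 0.125) without RM9 RT 24h mouse 1, which had the lowest Tgfb2 of its group. It also did not pass without RM9 Control mouse 3 (1.14), RM9 Control mouse 4 (1.12) or MC38 Control mouse 4 (1.15).

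Other genes of the pathway were taken from 6 lists with 74 genes, of which 65 were tested in each model. In RM9 a single gene passed, Inhbb, which encodes the activin beta B subunit. It went from 3.42 ± 0.704 TPM in controls to 6.15 ± 1.27 at 3 h and 5.15 ± 0.592 at 12 h (SD, n = 4), with log2 fold changes of 0.76 and 0.54 (limma adjusted p = 0.0438 and 0.0374). After scaling these were 0.69 and 0.74 (adjusted p = 0.0336 and 0.0623), and 2 listed genes passed at 3 h in place of 1. No gene of the lists passed in MC38 at 3 h.

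In MC38 at 12 h, 27 of the 65 genes were higher and 1 lower by deposited TPM, or 41.5% and 1.54%, beside 28.5% and 2.59% of all genes. After scaling 8 were higher and 3 lower, where 6.34% and 9.84% of all genes were. At 24 h 17 were higher and none lower, or 26.2%, beside 13.2% of all genes, and after scaling 12 were higher and 1 lower, where 7.85% and 8.15% of all genes were.

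Genes that store or release latent TGF-β were among those higher in MC38. Of 11 tested, 5 were higher and 1 lower at 12 h and 6 were higher at 24 h, and after scaling 3 were higher and 1 lower at 12 h and 5 higher at 24 h. Thbs1 (thrombospondin 1, an activator of latent TGF-β) went from 20.4 ± 3.82 to 49.98 ± 13.7 TPM at 24 h (SD, n = 4). The rise in log2 TPM was 1.25 (limma adjusted p = 0.00155), and 0.99 after scaling (adjusted p = 0.0144). Ltbp3, which binds latent TGF-β in the matrix, rose by 0.67 at 12 h and 0.74 at 24 h (limma adjusted p = 0.0141 and 0.00820). Furin, the protease that cuts the propeptide, rose by 0.69 at 12 h (adjusted p = 0.0121), and all 3 genes passed after scaling at these times.

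Other ligands of the family were few. Of 4 tested in MC38, 1 passed at 12 h and 3 at 24 h, all higher, beside 28.5% and 13.2% of all genes. Gdf11, an activin-like ligand, rose by 0.63 at 12 h and 0.77 at 24 h (limma adjusted p = 0.0258 and 0.0158). Bmp2, a bone morphogenetic protein, rose by 0.85 at 24 h, from 1.42 ± 0.224 to 3.05 ± 0.989 TPM (SD, n = 4; adjusted p = 0.0103). Both passed after scaling at 24 h, and Gdf11 did not at 12 h (0.32, adjusted p = 0.161).

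Of 9 other receptors and co-receptors in MC38, 4 were higher at 12 h and 2 at 24 h. Over all genes this held for 28.5% and 13.2%. After scaling none and 1 were higher, beside 6.34% and 7.85% of all genes. Acvr1, a type I receptor of bone morphogenetic proteins, rose by 0.68 and 0.72 (limma adjusted p = 0.0160 and 0.0136), and 24 h passed after scaling. Bmpr2, their type II receptor, rose by 0.79 at 12 h (adjusted p = 0.0165), and by scaling the value was 0.45 (adjusted p = 0.0912). Eng (endoglin), a co-receptor of endothelial cells, rose by 0.65 at 24 h (adjusted p = 0.0275), and after scaling the value was 0.39 (adjusted p = 0.311).

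Of 10 Smads and nuclear partners in MC38, 8 were higher at 12 h and 3 at 24 h. Over all genes this held for 28.5% and 13.2%. After scaling 3 were higher at 12 h, beside 6.34% of all genes. At 24 h 2 were then higher and 1 lower, beside 7.85% and 8.15%. The genes with the smallest p were Smad9 and Smad1, which act downstream of bone morphogenetic proteins. Smad9 went from 0.738 ± 0.313 TPM to 2.69 ± 0.763 at 12 h and 2.20 ± 0.275 at 24 h (SD, n = 4), with log2 fold changes of 1.37 and 1.16 (limma adjusted p = 0.00494 and 0.00350). Smad1 rose by 0.73 and 0.68 (adjusted p = 0.0109 and 0.0124). Both passed after scaling at both times.

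Of 15 inhibitors and feedback genes in MC38, 7 were higher at 12 h and 1 at 24 h. Over all genes this held for 28.5% and 13.2%. After scaling 1 was higher and 1 lower at 12 h, beside 6.34% and 9.84% of all genes. At 24 h 1 was then higher, beside 7.85%. Tgif2, a corepressor, and Rnf111 (Arkadia), a ligase that removes Skil and Smad7, rose by 0.70 and 0.64 at 12 h (limma adjusted p = 0.0175 and 0.0162), and Rnf111 passed after scaling. Tgif1 rose by 0.65 at 24 h (adjusted p = 0.0230), and by 0.39 after scaling (adjusted p = 0.0420).

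Of 16 other target genes tested in MC38, 2 were higher at 12 h and 2 at 24 h, and after scaling 1 was higher and 1 lower at 12 h and none passed at 24 h. By TPM 28.5% and 13.2% of all genes were higher at these times. Their medians by TPM were 0.013 and 0.32 beside 0.33 and 0.22 over all genes. Bhlhe40, a transcription repressor, went from 41.4 ± 9.06 to 88.3 ± 18.2 TPM at 12 h (SD, n = 4), a rise of 1.09 (limma adjusted p = 0.00823) that passed after scaling. Klf10 rose by 0.37 at 12 h (adjusted p = 0.0422), but by scaling the value was 0.033. At 24 h Junb rose by 0.65 (adjusted p = 0.0115) and Angptl4 by 1.54 (adjusted p = 0.0231), and neither passed after scaling (adjusted p = 0.112 and 0.0630).

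Between the controls, 26 of 66 listed genes were higher and 20 lower in MC38 by deposited TPM, or 39.4% and 30.3%, beside 64.7% and 10.7% of all genes. After scaling 11 were higher and 36 lower, where 34.1% and 31.5% of all genes were. The pairs with the smallest p in their lists were lower in MC38 for Ltbp3 (-1.54), Bmp2 (-3.76), the TGF-β co-receptor Tgfbr3 (-1.13), the inhibitor Pmepa1 (-3.03) and the cell cycle inhibitor Cdkn2b (-3.08). They were higher for Dcn (2.04), Inha (1.92), Eng (0.91), Smad2 (1.18), Trim33 (1.18), the activin-binding Fstl3 (3.62) and Junb (1.09). These are log2 differences with limma adjusted p from 1.10e-16 to 0.000106. All but Eng (0.27, adjusted p = 0.299) passed in the same direction after scaling.

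Across the 31 libraries, levels after scaling and centring on each model's mean were compared between genes, as a description. Inhba, Smad7 and Skil moved together, with Pearson's r of 0.68 for Inhba and Smad7, 0.62 for Inhba and Skil and 0.68 for Smad7 and Skil. Tgfb2 had r of 0.53 with Inhba and 0.51 with Tgfb3, and Tgfb1 had r from -0.25 to 0.045 with the other members. The points share libraries, scaling and RT groups.

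Over 12256 genes, the closest to Tgfb1 were Cpe (r = 0.73) and Fcrlb (0.68), to Tgfb2 RP23-110C17.2 (0.79) and Tead3 (0.79), and to Tgfb3 Cd99l2 (0.84) and Zfp651 (0.82). The closest to Tgfbr1 were Mmgt1 (0.77) and Gm7389 (0.74), and to Tgfbr2 Nid1 (0.81) and Slfn5 (0.76). For Inhba they were Arid5b (0.88) and Ptpn11 (0.87), for Smad7 Srgap3 (0.83) and Spred3 (0.82), and for Skil Zcchc11 (0.82) and Rprd2 (0.78). For Tgfb1 and Cpe the likeness was 0.82 within RM9 and 0.21 within MC38, and for Tgfb3 and Cd99l2 0.19 and 0.91.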

How the data were processed

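Polyadenylated RNA was sequenced as single reads of 75 bases. Per the submitters' notes, reads were converted with bcl2fastq 2.17 and the build was GRCm39, but the deposited coordinates match GRCm38 (GENCODE M21). The aligner and counting program are not given in the sources used here. The authors deposited TPM, FPKM and coverage (a signal of mean read depth per base) per gene and library, and no counts. Repeated gene entries, 9 to 23 per library, were summed.

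In R 4.3.3, limma 3.58.1 (lmFit, eBayes with trend) was run on log2(TPM + 0.5) for genes averaging 0.5 TPM or more. The 4 groups of a model shared a fit, and contrasts between models came from a fit of all 31 libraries. Fold changes are on that scale and understate low genes. Benjamini-Hochberg adjustment covered all genes, with a threshold of 0.05. P-values set a difference between groups against the spread between mice within groups. In limma that spread was pooled over the groups in the fit, with information shared over genes. Depth was estimated from the ratio of FPKM to coverage. For mt-Nd4l, FPKM per coverage was 42.4 times the lowest ratio in the library.

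The settings varied were the pseudocount (0.1 or 1), median-ratio scaling, TPM without mitochondrial genes, no filter, a filter at 5 TPM, no trend, only the 2 compared groups, the replicate number as a block, Dunnett's comparison on TPM (scipy 1.17.1), and each mouse left out. Deposited FPKM and coverage were added after seeing the data. From each pathway list, up to 2 genes with the smallest p among those called with a mean of at least 1 TPM were named, as were the 2 genes most correlated with each member. Fits were tested on simulated data. The members and lists were chosen with earlier results of these data known.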

Additional observations from a re-analysis of the deposited data

Results flagged for a closer look

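Of 56 sets of 4 libraries (1 gene in 1 group), 3 held a library far from the rest by Dixon's test at the 95% level, which flags about 1 in 20 by chance. In MC38 RT 24h, mouse 1 was the lowest for Tgfb1 (60.4 TPM) and the highest for Tgfb2 (3.80 TPM). Its fibroblast, endothelial and muscle markers summed to 428, 79.3 and 3308 TPM, each the highest of its group. Its mt-Nd4l, at 20.8% of TPM, was also the highest of the group. In MC38 RT 12h, mouse 2 was the highest for Skil (25.7 TPM). Groups of 3 were not tested.

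The change after RT differed between the models for 3 values by limma's interaction contrast. At 12 h the log2 change in MC38 was above that in RM9 by 0.44 for Tgfb1 and by 0.52 for Tgfbr2, beside a median of 0.50 over all genes. At 24 h it was above by 1.20 for Tgfb2, beside a median of 0.25.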

How the results depend on the processing

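Of 1696 member values under an alternative, 1604 kept their side of the threshold, 41 lost a call, 44 gained one and 7 changed sign, and 133 had another sign in all. In RM9 at 3 h the count of 0 members was 3 in Dunnett's comparison. In MC38 at 12 h the count of 0 was 1 with a filter at 5 TPM, 2 with the replicate block and 1 in Dunnett's comparison, and 0 to 3 with a mouse left out (3 without Control mouse 3). In MC38 at 24 h the count of 2 was 1 without mitochondrial genes, without a filter, with a filter at 5 TPM (where Tgfb2 was not tested) and with the replicate block, 0 with only the compared groups (Tgfb2 adjusted p = 0.0693), and 1 to 4 with a mouse left out, the 4 without Control mouse 3. For the difference between models at 12 h the count of 2 was 0 with median-ratio scaling, without mitochondrial genes, by FPKM and by coverage, and 0 to 5 with a mouse left out (0 without MC38 Control mouse 1 or RM9 RT 12h mouse 1, 5 without MC38 Control mouse 3). At 24 h the count of 1 was 0 with median-ratio scaling, with a filter at 5 TPM, by FPKM and by coverage, and 0 to 1 with a mouse left out. Tgfbr2 between controls turned from 0.34 to -0.31 (median-ratio), -0.081 (no mitochondrial genes) and -0.11 (FPKM and coverage). Tgfb1 between models at 12 h turned from 0.44 to -0.090 (median-ratio), -0.029 (FPKM) and -0.022 (coverage). The cause was not tested. Replicate numbers name different mice, and in no comparison did every same-numbered pair correlate above 0.1 (range -0.45 to 0.52). The replicate block gained Tgfb1 and Skil at 12 h in MC38 and Skil between models at 12 h, lost Tgfbr2 at 24 h in MC38, and changed no other call. Without counts, precision rests on 3 or 4 mice per group.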
